A study of Mus musculus with 2 samples.

Results

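The transcripts of 10 genes that make, bind or break down hyaluronan were measured in fibro-adipogenic progenitors (FAPs), which are mesenchymal cells of muscle with the capacity to form fibroblasts or adipocytes. The genes were Has1, Has2, Has3, Ugdh, Cd44, Vcan, Tnfaip6, Hyal1, Hyal2 and Cemip. They were chosen by name, and all 10 were found once among the 44291 genes of the expression tables. The study compared 1 RNA-seq library of primary wild-type (WT) mouse FAPs treated with platelet-rich plasma (PRP) with 1 library of FAPs that received vehicle (control). Per the labels, both were exposed to adipogenic induction medium, in which insulin (10 μg/ml), the glucocorticoid dexamethasone (0.25 μM) and the phosphodiesterase inhibitor IBMX (0.5 mM) were added to 20% FBS. The labels give no strain, sex or age of the mice and no time of harvest. The study's methods name C57BL/6 mice and sorting of FAPs from both hind limbs. Its text describes the treatment as exosomes from the PRP of young human donors, whereas the labels say PRP. With 1 library in each group no test between treatments was possible, and every difference is one between 2 libraries. The animals or cultures behind each library are not given.

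Hyaluronan is a long sugar polymer without a protein core. It is built at the plasma membrane by hyaluronan synthases, which join UDP-glucuronic acid and UDP-N-acetylglucosamine and push the growing chain out of the cell. Outside, the chain is held by receptors such as CD44 and organised by proteoglycans and secreted proteins, and it is cut by hyaluronidases and by CEMIP. Fibroblasts and other mesenchymal cells are known as main producers, and hyaluronan-rich matrix is a feature of injured muscle.

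The libraries held 40120843 (PRP) and 34139741 (control) reads assigned to genes, a ratio of 1.18. All levels are FPKM, that is read counts scaled to the exon length of each gene and to the assigned reads of each library. This makes levels roughly comparable between genes. The length takes in all annotated exons, whether used by these cells or not, and the counting intervals below do not cover this. Of the 6 FAP markers all were above 1 FPKM on average, with a summed level of 229.4 FPKM (PRP) and 377.6 FPKM (control). All 6 were lower in the PRP library, and their part in the differences below was not tested. The 6 macrophage and leukocyte markers summed to 5.45 FPKM (PRP) and 3.10 FPKM (control), of which only Cd68 passed 1 FPKM on average (4.56 and 2.31 FPKM), and the pan-leukocyte gene Ptprc was at 0.0109 and 0.0192 FPKM. The myogenic list summed to 2.92 and 3.43 FPKM and the platelet list to 0.636 and 0.365 FPKM. The myogenic genes Pax7 and Myog and the platelet genes Gp9 and Ppbp were listed at 0 in both libraries. Reads were aligned to the mouse genome, so the platelet list holds mouse genes and is no check for RNA of the human donors. Of 4 endothelial markers Kdr and Tek passed 1 FPKM, with a summed level for the list of 9.24 FPKM (PRP) and 5.21 FPKM (control). The 5 adipocyte markers summed to 50.8 FPKM (PRP) and 43.2 FPKM (control), of which Fabp4 alone had 40.7 and 33.6 FPKM. Of the 5, 3 had higher values with PRP, while Plin1 and Lep had lower ones. Only Fabp4 had an interval above 1. In bulk RNA, fewer cells of a type and less RNA per cell cannot be told apart.

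To see which part of the hyaluronan system these cells expressed, levels were compared first. The receptor gene Cd44, the precursor enzyme gene Ugdh and the depolymerase gene Cemip stood far above the other members, between 17.3 and 33.2 FPKM. Vcan, Hyal1, Has2 and Hyal2 formed a middle group between 0.954 and 3.45 FPKM. Has1, Has3 and Tnfaip6 stayed under 0.4 FPKM in both libraries, which for Tnfaip6 meant 20 reads (PRP) and 6 reads (control). The order of the 3 highest genes differed between the libraries. In the control library it was Cemip, Cd44 and Ugdh, and their counting intervals did not overlap. In the PRP library Cd44 came first, and Ugdh and Cemip had overlapping intervals (20.6 to 22.2 FPKM and 19.7 to 20.8 FPKM). Other neighbours with overlapping intervals were Vcan and Hyal1 in the PRP library, Hyal2 and Has2 in the control library, and Has3, Has1 and Tnfaip6 in both.

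**Figure D1:**
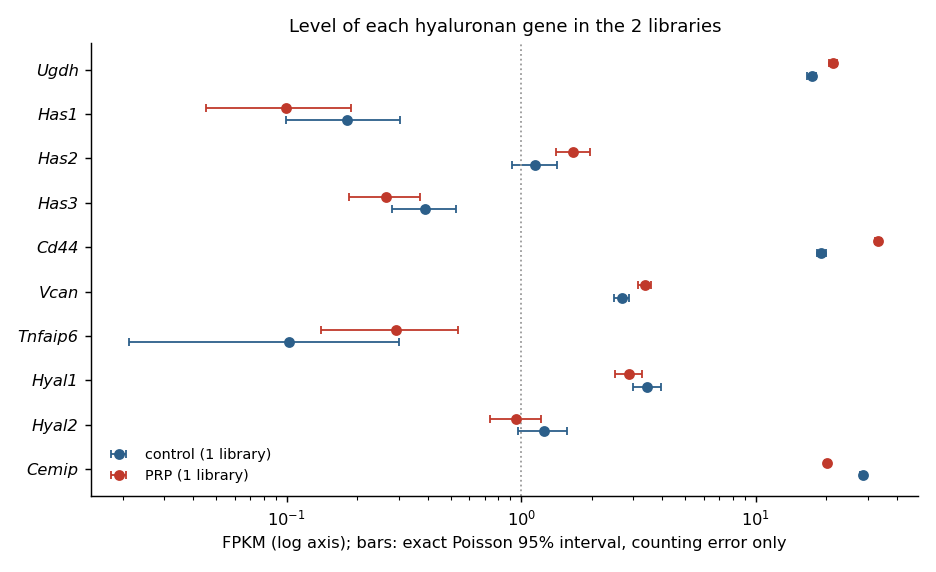
FPKM of the 10 hyaluronan genes in the PRP library (red) and the control library (blue) on a log axis, with exact Poisson 95% intervals for counting error only and a dotted line at 1 FPKM. Cd44, Ugdh and Cemip lie between 17.3 and 33.2 FPKM, and Has1, Has3 and Tnfaip6 lie under 0.4 FPKM with wide intervals.

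The differences between the libraries were then asked for. Cd44 was higher in the PRP library by a ratio of 1.74 and Cemip was lower by a ratio of 0.708, and they were the members with the largest differences in each direction among those above 1 FPKM. Has2, Vcan and Ugdh were higher by smaller ratios, from 1.23 to 1.46. For Hyal1 and Hyal2 the values were lower in the PRP library but within counting error. The filter, a mean of 1 FPKM or more, was passed by 7 members. None of the 7 differed at least 2-fold on the log2(FPKM + 1) scale, against 2.83% of all 13401 genes over that filter (379 genes). The median log2 fold change of the 7 was 0.24, against 0.01 for all genes over the filter. Without a filter, where all 10 members enter, their median was 0.06, and at a pseudocount of 5 the median of the 7 was 0.12. A 95% interval was computed for each ratio from the numbers of sequenced fragments. It covers counting error alone and compares libraries, not treatments. The interval lay above 1 for 4 of the 7 members and below 1 for 1, while among the 12369 genes with such an interval 26.1% lay above 1 and 26.1% lay below 1. So an interval that leaves out 1 was common in these deep libraries.

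**Figure D2:**
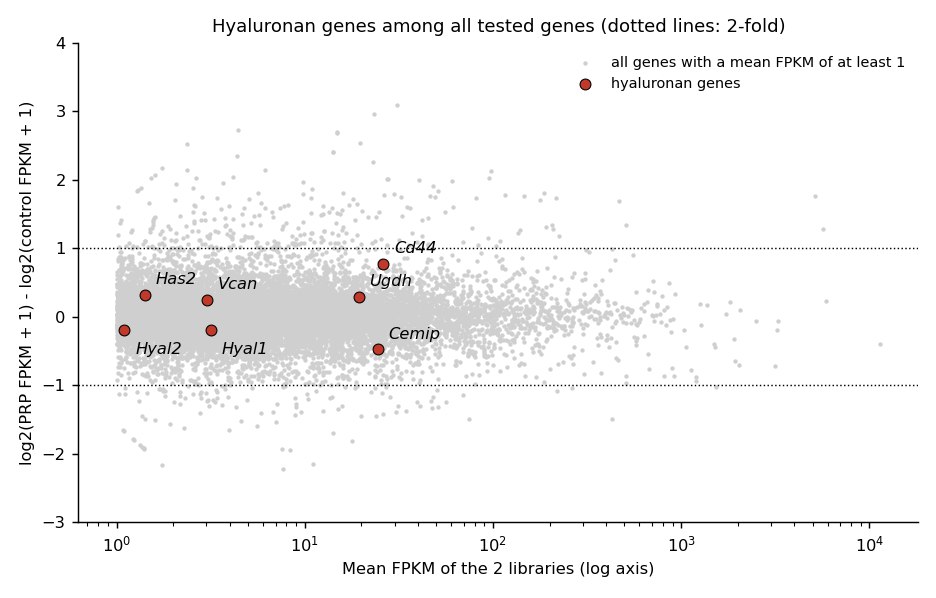
Log2 fold change, log2(PRP FPKM + 1) minus log2(control FPKM + 1), against the mean FPKM of the 2 libraries (log axis) for 13401 genes in grey and the 7 members above the filter in red, with dotted lines at 2-fold. All 7 lie between the lines, from -0.48 for Cemip to 0.77 for Cd44.

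Precursor supply was examined first. Ugdh (ENSMUSG00000029201, GRCm38 chromosome 5, 65413221 to 65435949, minus strand) encodes the dehydrogenase that turns UDP-glucose into UDP-glucuronic acid. It had 21.4 FPKM (5791 reads) with PRP and 17.3 FPKM (3996 reads) in control. The ratio was 1.23 with an interval from 1.16 to 1.31, and the log2 fold change of 0.29 lay at the 81.5th percentile of all tested genes. Of its exon bases 2.34% are shared with another annotated gene.

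None of the other 7 precursor genes had an interval above 1. Ugp2, which makes UDP-glucose, had 32.8 and 33.3 FPKM (ratio 0.986, interval 0.924 to 1.05). On the glucosamine branch, Gfpt1 of the rate-limiting first step was lower (7.74 against 9.02 FPKM, ratio 0.858, interval 0.80 to 0.921). Its paralog Gfpt2 had 13.0 and 12.5 FPKM, with an interval that included 1. Pgm3, Uap1 and Uap1l1 were lower as well, with ratios from 0.880 to 0.896, and Pgm3 shares 28.3% of its exon bases with Dop1a. Gnpnat1 had a ratio of 0.869 with an interval from 0.722 to 1.05, and 83.5% of its exon bases are shared with other genes. Over all 8 precursor genes, Ugdh included, the interval lay above 1 for 1, below 1 for 4 and included 1 for 3, beside the 26.1% of all genes in each direction.

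The synthases came next. Has2 (ENSMUSG00000022367, chromosome 15, 56665627 to 56694539, minus strand) is known as the main synthase of fibroblasts and is required for embryonic development. It had 1.67 FPKM with PRP and 1.15 FPKM in control, from 284 and 166 reads. The ratio was 1.46 with an interval from 1.10 to 1.93, at the 83.3rd percentile of all tested log2 fold changes. Has2 was the one synthase gene above 1 FPKM.

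Has1 (chromosome 17, 17843323 to 17855205, minus strand) and Has3 (chromosome 8, 106870242 to 106884566, plus strand) encode the other isoenzymes. Has1 had 0.0993 FPKM (18 reads) with PRP and 0.182 FPKM (28 reads) in control. Its ratio of 0.547 had an interval from 0.209 to 1.36. Has3 had 0.266 FPKM (68 reads) and 0.390 FPKM (85 reads), with a ratio of 0.681 and an interval from 0.421 to 1.09. A difference in Has1 or Has3 was therefore not detectable at this depth, and 5.52% of the exon bases of Has3 are shared with Chtf8.

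Together the synthase genes summed to 2.04 FPKM with PRP and 1.72 FPKM in control. Has2 held 82.1% of this sum with PRP and 66.7% in control. A comparison within each library does not depend on how the libraries are scaled. The fragments of Has2 against those of Has1 and Has3 together were 142 to 43 with PRP and 83 to 56 in control. The ratio of these ratios was 2.22, with an exact 95% interval from 1.34 to 3.71 for counting error. This pair and the 4 other pairs below were chosen after the values were seen, and here the synthase with the higher value was set against those with lower values, so the number is a description only. The ratio of Has2 to Ugdh differed by a factor of 1.18, with an interval from 0.889 to 1.58 that included no difference.

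Has2os is an antisense RNA gene that overlaps Has2, sharing 182 bases or 4.30% of the exon length of Has2. It had 1.12 FPKM (73 reads) with PRP and 0.684 FPKM (38 reads) in control. Its ratio of 1.63 had an interval from 0.915 to 3.01. The strand setting of the counting is not stated, so reads in the shared bases cannot be assigned to one strand.

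The study follows the human microRNAs let-7f and miR-16 as exosome cargo. The 3'UTRs of the members were therefore searched for the 7 bases that pair with each seed. The mature mouse sequences are shown from RefSeq (GRCm38.p6), written 5' to 3' with the seed, bases 2 to 8, in capitals.
mmu-let-7f-5p: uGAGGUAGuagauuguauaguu
mmu-miR-16-5p: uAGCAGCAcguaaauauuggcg
Only Has2 and Has3 held a match, both to miR-16 (TGCTGCT), and no member held a let-7 match (CTACCTC). Among 10365 genes over the filter with a 3'UTR, 27.1% held the first and 11.2% the second. The search covered all 10 members, of which Has1, Has3 and Tnfaip6 are under that filter. The Has3 match was in 2 of its 3 annotated transcripts with a 3'UTR. The Has2 match starts at base 127 after the stop codon, at chromosome 15, 56667526 to 56667532 (minus strand). The Has3 match starts at base 1440, at chromosome 8, 106880268 to 106880274 (plus strand). Both are shown with their flanks because they are the members' sole matches, with the match in capitals.
Has2 3'UTR: agacatatcacTGCTGCTgggacttgaac
Has3 3'UTR: gcacctccattTGCTGCTtcagtccagaa
In neither is the match followed by an A, the base that strengthens many microRNA sites. Of these genes, Has2 had a ratio of 1.46 with an interval above 1. Has3 had a ratio of 0.681 with an interval that included 1. An effect of miR-16 on either gene was not tested. The 3'UTRs of Cd44 and Cemip, 2992 and 2764 bases long, held neither match. A match is a description of the sequence and not evidence of binding.

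Among the receptors, Cd44 (ENSMUSG00000005087, chromosome 2, 102811141 to 102901665, minus strand) encodes the main cell-surface receptor for hyaluronan, which binds it through a Link domain. It had 33.2 FPKM (9028 reads) with PRP and 19.1 FPKM (4415 reads) in control. The ratio was 1.74 with an interval from 1.65 to 1.83, and the log2 fold change of 0.77 lay at the 96.5th percentile. Cd44 ranked 1624th of all genes by level with PRP and 2654th in control. None of its exon bases is shared with another gene, and its splice forms cannot be told apart in values per gene. CD44 is also abundant on leukocytes. The 6 macrophage and leukocyte markers summed to 5.45 FPKM (PRP) and 3.10 FPKM (control), and 3 had higher values with PRP. Only Cd68 had an interval above 1 (ratio 1.98, interval 1.41 to 2.82), and Ptprc was at 0.0109 and 0.0192 FPKM. The part of these markers in the difference in Cd44 was not tested.

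The other receptor genes lay on both sides of 1. Layn, which encodes the lectin-like receptor layilin, was the most abundant with 221.7 FPKM with PRP and 163.1 FPKM in control (ratio 1.36, interval 1.32 to 1.40). Hmmr, whose product RHAMM binds hyaluronan and also acts on the mitotic spindle, was lower with 10.3 against 16.8 FPKM (ratio 0.617, interval 0.571 to 0.667). The ratio of Cd44 to Hmmr differed by a factor of 2.82 between the libraries (interval 2.57 to 3.10). In this pair, chosen after the values were seen, a higher gene was set against a lower one. Tlr4, an innate immune receptor that responds to hyaluronan fragments, was higher (4.08 against 3.38 FPKM, ratio 1.21, interval 1.05 to 1.40). Tlr2, which passed the filter on the mean only through its level with PRP (1.19 against 0.855 FPKM), had a ratio of 1.39 with an interval from 0.944 to 2.08. The endothelial and lymphatic receptors Lyve1, Stab1 and Stab2 had at most 28 reads in either library.

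The proteins that carry CD44 signals to the cytoskeleton differed from each other. Ezr, which encodes ezrin, had 37.4 FPKM with PRP and 17.7 FPKM in control, so that the ratio was 2.12 (interval 1.97 to 2.28). Msn (moesin) was far more abundant and differed little, with 428.3 against 407.0 FPKM (ratio 1.05, interval 1.04 to 1.07). Rdx (radixin) had 72.8 against 99.3 FPKM, a ratio of 0.733, for which whole reads could not be recovered and no interval is given. Of the proteases known to shed CD44, Mmp14 was lower (ratio 0.793, interval 0.767 to 0.821), as was Adam10 (0.922, 0.862 to 0.986).

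The promoters of 8 members were found in RefSeq, those of Has2 and Has3 not being in the table. Each covers 250 bases before and 50 bases after the annotated start. They were searched on both strands for the GC box (GGGCGG), the TATA box (TATAAA), the AP-1 site (TGANTCA), the cAMP response element (TGACGTCA) and an NF-kB site (GGG, any 3 bases, TTCC). None of these motifs overlapped another kind within the 8. The GC box was present in 7 of the 8 (35.7% of 32851 promoters), in all but Has1. The AP-1 site was in Tnfaip6 alone (7.81% of promoters) and the cAMP response element in Has1 alone (1.79%), at 142 and 83 bases before the start. The TATA box was in Cemip alone (13.6%), and the NF-kB site was in none of the 8 (5.56%). The promoters of Cd44 and Cemip are printed because these members differed most in opposite directions, with motif matches in capitals (CCGCCC is the GC box on the opposite strand), 5' to 3' on the minus strand of GRCm38.p6. The Cd44 promoter lies at chr2:102901616-102901915 and the Cemip promoter at chr7:84086456-84086755.
Cd44 promoter: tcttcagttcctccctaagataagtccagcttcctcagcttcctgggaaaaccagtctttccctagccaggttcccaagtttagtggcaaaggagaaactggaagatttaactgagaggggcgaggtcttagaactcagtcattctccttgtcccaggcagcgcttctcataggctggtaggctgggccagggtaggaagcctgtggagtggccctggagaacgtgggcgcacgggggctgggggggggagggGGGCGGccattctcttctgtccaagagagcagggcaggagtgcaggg
Cemip promoter: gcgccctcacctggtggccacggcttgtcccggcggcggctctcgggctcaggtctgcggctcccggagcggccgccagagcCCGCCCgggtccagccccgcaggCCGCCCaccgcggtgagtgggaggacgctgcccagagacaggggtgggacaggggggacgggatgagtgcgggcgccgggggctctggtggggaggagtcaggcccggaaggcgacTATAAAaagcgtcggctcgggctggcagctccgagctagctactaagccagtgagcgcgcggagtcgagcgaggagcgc
The Cd44 window held 58% G or C and 6 CpG, with a single GC box that starts at base 4 after the start. The Cemip window held 73.7% G or C and 33 CpG, with a TATA box 29 bases before the start and GC boxes 145 and 168 bases before it. The median over all promoters was 52.7% G or C and 7 CpG.

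Versican and TSG-6 organise the hyaluronan coat. Vcan (ENSMUSG00000021614, chromosome 13, 89655312 to 89742509, minus strand) encodes the large proteoglycan versican. It had 3.36 FPKM (1948 reads) with PRP and 2.68 FPKM (1323 reads) in control. The ratio was 1.25 with an interval from 1.13 to 1.39, at the 78th percentile of log2 fold changes. Vcan was the one gene of its group above 1 FPKM. The related proteoglycan gene Acan and the link protein gene Hapln1 had no reads in either library, and Ncan, Bcan, Hapln2, Hapln3 and Hapln4 had at most 50 reads.

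Tnfaip6 (ENSMUSG00000053475, chromosome 2, 52038009 to 52056686, plus strand) encodes TSG-6, an inflammation-induced protein that moves heavy chains of inter-alpha-inhibitor onto hyaluronan. It had 0.292 FPKM with PRP and 0.103 FPKM in control. These levels rest on 20 and 6 reads, and the ratio of 2.84 had an interval from 0.730 to 16.0 that included 1. A difference in Tnfaip6 was thus not detectable at this depth.

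The partners of TSG-6 were expressed unevenly. Ptx3, the gene of a pentraxin that binds the heavy chains and stabilises hyaluronan matrix, had 273.2 FPKM (29393 reads) with PRP and 83.5 FPKM (7648 reads) in control. Its ratio of 3.27 had an interval from 3.16 to 3.39. Of the heavy chain genes, Itih2, which passed the filter on the mean only through its level with PRP, had 1.35 against 0.831 FPKM (ratio 1.63, interval 1.13 to 2.37) and Itih5 had 0.994 and 0.979 FPKM (ratio 1.02, interval 0.801 to 1.29). Itih1, Itih3 and Itih4 and the bikunin gene Ambp had at most 10 reads in either library. So the heavy chain partner Ptx3 was among the abundant genes of the list, while TSG-6 itself was close to the detection limit.

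Breakdown was led by Cemip (ENSMUSG00000052353, chromosome 7, 83932857 to 84086502, minus strand), whose product drives hyaluronan depolymerisation in fibroblasts. It had 20.2 FPKM (9926 reads) with PRP and 28.6 FPKM (11927 reads) in control. The ratio was 0.708 with an interval from 0.682 to 0.736, and the log2 fold change of -0.48 lay at the 7.37th percentile. None of its exon bases is shared with another gene. Cemip was the most abundant member in the control library. In the PRP library it came after Cd44, and its interval overlapped that of Ugdh.

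Hyal1 (ENSMUSG00000010051, chromosome 9, 107576927 to 107581710, plus strand) encodes a lysosomal hyaluronidase. It had 2.87 FPKM (435 reads) with PRP and 3.45 FPKM (445 reads) in control. The ratio was 0.832 with an interval from 0.687 to 1.01. Of its exon length 51.9% is shared with Hyal3 and Naa80, so its reads are uncertain. The interval lay below 1 when the libraries were rescaled to a common sum of FPKM. Hyal2 (ENSMUSG00000010047, chromosome 9, 107567945 to 107572779, plus strand) encodes a hyaluronidase anchored at the cell surface. It had 0.954 FPKM (126 reads) and 1.25 FPKM (140 reads), with a ratio of 0.766 and an interval from 0.536 to 1.09. Hyal2 passed the filter on the mean through its level in the control library.

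Among the 5 expressed genes of the hyaluronidase and CEMIP families (Hyal1, Hyal2, Hyal3, Cemip and Cemip2), Cemip made up most of the total, 74.2% with PRP and 79.1% in control. The totals were 27.3 and 36.1 FPKM. Cemip2, which encodes a cell-surface protein related to CEMIP, had 1.83 and 1.86 FPKM (ratio 0.981, interval 0.831 to 1.16). Hyal3, which shares 8.16% of its exon bases with neighbouring genes, had 1.38 and 1.01 FPKM with an interval from 0.875 to 2.18. The ratio of Hyal1 to Cemip differed by a factor of 1.17 between the libraries, with an interval from 0.966 to 1.43 that included no difference. Hyal4 and Hyal5 had no reads and Hyal6 had 2 reads in 1 library. Spam1, the sperm hyaluronidase gene, was not analysed here.

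Lysosomal enzymes that finish hyaluronan breakdown came next. Gusb (beta-glucuronidase) was lower with 7.82 against 9.65 FPKM (ratio 0.810, interval 0.730 to 0.899). Hexa (hexosaminidase A) was slightly lower (51.9 against 55.5 FPKM, ratio 0.935, interval 0.878 to 0.995).

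Of the 6 listed genes of proteases that cut versican, 3 passed the filter. Of these 3 the interval lay above 1 for 0, below 1 for 2 and included 1 for 1. Over all genes 26.1% lay on each side. Adamts1 was the most abundant and was lower with 73.3 against 95.03 FPKM (ratio 0.771, interval 0.748 to 0.795). Adamts5 was lower (29.6 against 33.0 FPKM, ratio 0.896, interval 0.865 to 0.928), and Adamts4 had 5.66 and 5.75 FPKM. Under the filter, Adamts15 had 0.140 FPKM (58 reads) against 0.588 FPKM (208 reads), a ratio of 0.237 with an interval from 0.152 to 0.361. Adamts9 had 0.557 against 0.775 FPKM, with a ratio of 0.718 (interval 0.582 to 0.887). Adamts20 had 15 reads with PRP and 8 reads in control, with a ratio of 1.595 (interval 0.417 to 7.33). Adamts15, Adamts9 and Adamts20 were named after their values were seen.

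**Figure D3:**
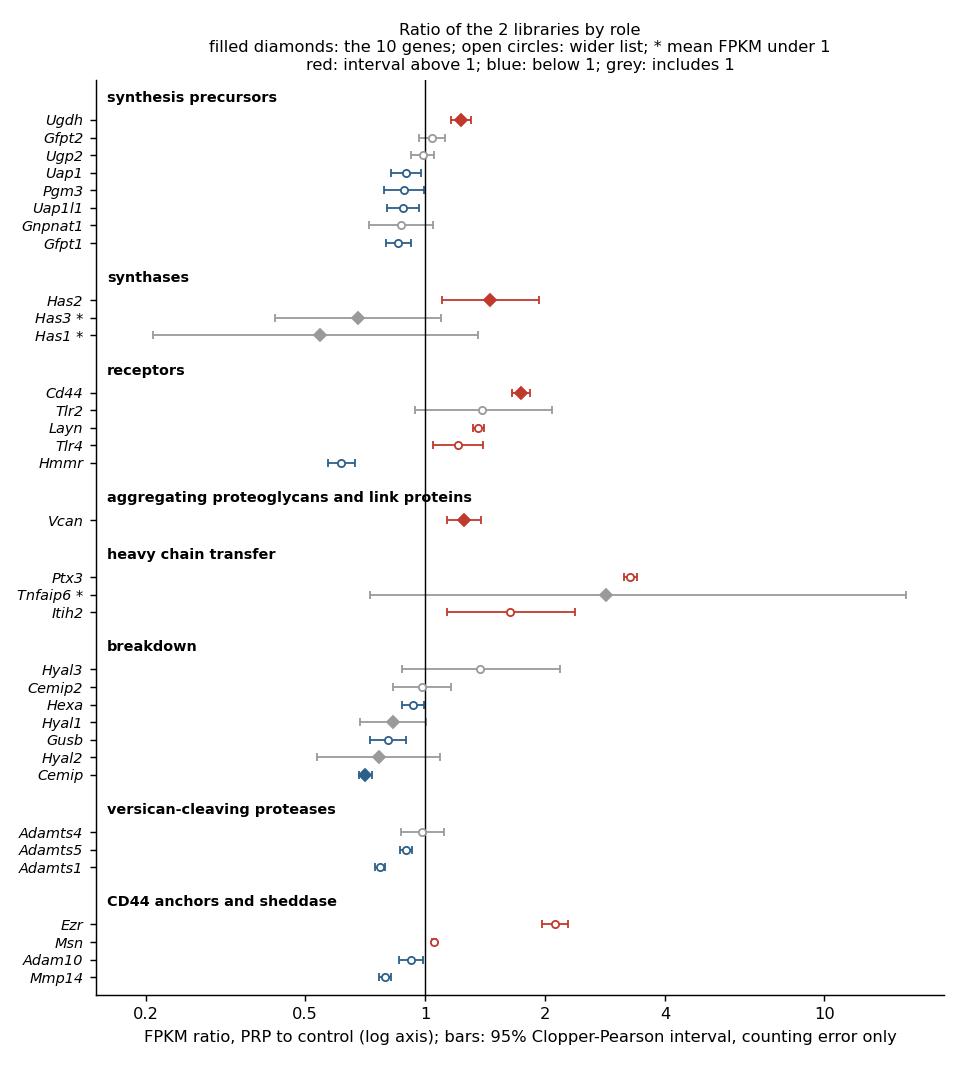
Ratio of PRP FPKM to control FPKM on a log axis, with 95% Clopper-Pearson intervals for counting error only, for the 10 members (filled diamonds) and expressed genes of the wider list (open circles), grouped by role. Cd44, Ptx3 and Ezr lie furthest right with narrow intervals (ratios 1.74, 3.27 and 2.12), and Hmmr and Cemip lie left of 1 (0.617 and 0.708).

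Over the wider list of 59 hyaluronan genes, of which 49 are not members, 33 passed the filter. Of these Ptx3 and Ezr differed at least 2-fold, which is 6.06% of the 33 beside the 2.83% of all genes. The median log2 fold change of the 33 was -0.02, against 0.01 for all genes. Outside the members, 25 genes of the list had an interval, which lay above 1 for 7 (28%) and below 1 for 11 (44%), beside the 26.1% in each direction over all genes. Layn, Tlr4, Itih2, Ptx3, Ezr and Msn were among those above 1, of which Itih2 passed the filter only through the PRP library. No reads in either library were found for 5 genes of the list, which allows levels of up to 0.0812 FPKM.

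Within the members the make-up of the transcripts differed. The 10 genes summed to 84.3 FPKM with PRP and 74.2 FPKM in control. Cd44 held 39.4% of this sum with PRP against 25.7% in control, and Cemip held 24% against 38.5%. Ugdh held 25.4% and 23.4%. The ratio of Cd44 to Cemip fragments, which no scaling of a library can alter, differed by a factor of 2.46 with an interval from 2.31 to 2.62. This pair was chosen after the values were seen, as the members that differed most in opposite directions, so the number is a description only.

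**Figure D4:**
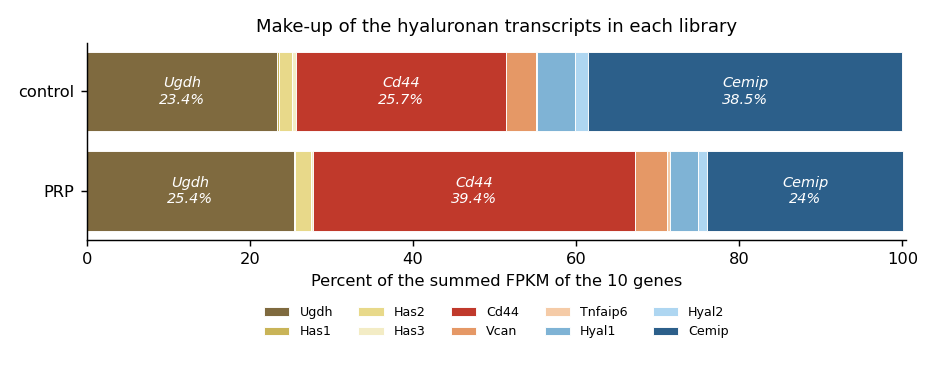
Share of each of the 10 genes in their summed FPKM, in percent, for the control library (upper bar) and the PRP library (lower bar). Cd44 takes 39.4% with PRP against 25.7% in control, and Cemip takes 24% against 38.5%.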

How the data were processed

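RNA was extracted with TRIzol and stranded mRNA libraries were sequenced, 1 for PRP and 1 for control. Per the labels, the authors trimmed reads with fastp 0.23.4, aligned them to mm10 with STAR 2.5.3a and counted them with featureCounts. The deposited values are FPKM as the authors computed them. The annotation release, the strand setting and the step from counts to FPKM are not given in the sources used here.

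Gene identifiers were matched to GENCODE M21 (GRCm38), with an entry for 41492 of 44291 genes (93.7%). FPKM multiplied by summed exon length gave whole reads in both libraries, within 0.001 reads, for 26406 (93.8%) of 28160 genes with a length and a value above 0, all members included. Even read numbers were in excess (79.3% and 80.3% of genes with up to 8 reads), as when mates are counted singly, so intervals used reads divided by 2. They are exact Clopper-Pearson (ratios), Poisson (levels) or conditional odds ratio intervals at 95%, and they take no account of PCR duplicates or of variation between cultures.

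Log2 fold changes were differences of log2(FPKM + 1), PRP minus control, and were computed where the 2 libraries averaged 1 FPKM or more. The pseudocount understates the change of low genes. Members, lists, tests and motifs were chosen with earlier results of these data known. All members are named. Of the wider list, genes past 2-fold and the most abundant of each role are named by rule, and the others after their values were seen. A gene of the list enters its counts and medians but is not reported here by itself. The procedures were tested on simulated data. Alternatives were the pseudocount, filter, scaling, threshold, interval unit and level, and the 3'UTR used. Python 3.11.15, NumPy 2.4.6, pandas 2.3.3, SciPy 1.17.1 and matplotlib 3.10.9 were used.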

Additional observations from a re-analysis of the deposited data

How the results depend on the processing

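No paired analysis was possible because there is 1 library per group. Each member kept its direction under each pseudocount, filter and scaling in which it had a value, in 63 comparisons (with the filter at 5 FPKM only Cd44, Cemip and Ugdh had one), and in 61 of them the value moved by less than the counting interval. The exceptions were Cd44 (0.67) and Cemip (-0.41) at a pseudocount of 5. A pseudocount cannot turn a direction round, and a filter leaves the value of a member as it is. Only the scalings could therefore have changed a direction. The median of the members ranged from 0.06 without a filter, where all 10 enter, to 0.30 at a pseudocount of 0.1.

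The number of members at 2-fold was 0 in each setting tried. At a threshold of 1.5-fold 1 of 7 members (Cd44) passed, beside 1436 of all 13401 genes. In the wider list 2 of 33 genes passed in the main setting, against 1 at a pseudocount of 5. Without genes that share exon bases, an alternative chosen after seeing the data, 1 of 20 passed. At 1.5-fold 4 of 33 passed (Cd44, Hmmr, Ptx3 and Ezr), and at 4-fold 0 passed. Over all genes 379 of 13401 became 739 and 113 at pseudocounts of 0.1 and 5. With the filter raised to 5 FPKM fewer genes were tested, and 210 of 7033 passed. Rescaling to a common sum with and without mitochondrial and top genes gave 596 and 638. The count was 1436 at 1.5-fold and 26 at 4-fold. The 2 rescalings also raised all values under an unchanged pseudocount, which then weighs less. Between the libraries they changed the ratio only by factors of 0.989 and 0.9775, and centring on the median gene gave 377.

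The 5 members whose interval left out 1 were the same at 99% and with the 3 low members included. Rescaling added Hyal1, and reads that were not halved added Hyal1 and Hyal2. Reads that are not halved narrow the interval of each gene. The share of all genes under these settings is not reported here, so the added members cannot be set against it. Depth limits Has1, Has3 and Tnfaip6, which have at most 85 reads in a library.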
